A study of Homo sapiens with 12 samples.

Results

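The Rab GTPases are small membrane-associated switches that direct the traffic of vesicles between the compartments of a cell. A gene was taken as a member when the array annotation gave a probe set exactly 1 gene symbol made of RAB, a number and at most 1 letter, so effectors and interacting proteins were not members. Of the 11963 genes with such single-symbol probe sets, 42 were members, covered by 76 of the 22215 non-control probe sets. Each of the 21 genes with several probe sets was represented by the one with the brightest mean over all 12 arrays. Another 5 probe sets carrying a Rab symbol together with other symbols were left out. The rule uses the symbol and mean brightness, not a difference between groups.

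The arrays came from HMT-3522 S1, a non-neoplastic line of human mammary epithelium used at passage 55 to 60, which forms hollow acini in gel rich in basement membrane. All 3 groups of 4 arrays were grown in H14 medium with 5% Matrigel for 8 days with EGF and then 48 hours without it. The vehicle group was labelled polarized. The AGA group received 10 µM 18-alpha-glycyrrhetinic acid, which blocks gap junctions, and the Aza group 10 µM 5-aza-2'-deoxycytidine, which traps DNA methyltransferases. Both drugs were given for 10 days from plating, with medium changed every 2 days, and both groups were labelled not polarized. Drug exposure and loss of polarity therefore cannot be told apart in any comparison with vehicle. The cultures are 1 cell line without stroma, and the drugs were present throughout acinus formation, so an effect on formed acini was not measured. The design calls the 4 replicates biological, and the p-values measure the spread between these cultures of this line.

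A Rab protein binds membrane through attached prenyl lipids, is switched on by an exchange factor that loads GTP, recruits effectors such as tethers and motors, and is switched off by a GTPase activating protein. In epithelial cells RAB11A and RAB8A act in sequence on vesicles that carry apical proteins to the forming lumen, and RAB25, RAB14, RAB13, RAB17 and RAB35 also serve junctional or apical traffic. Other members mark early endosomes, late endosomes and lysosomes, the Golgi apparatus or secretory granules. The activity of a Rab is set largely by its nucleotide state and location, which an array does not measure. In bulk RNA, fewer cells with a transcript and less transcript per cell cannot be told apart.

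Since Aza blocks methylation of cytosine in CG pairs, the upstream windows of RAB40A, RAB11A and RAB8A are shown, with that of RAB31, which differed most firmly between replicate sets. Each is the 250 bases before the RefSeq gene start in GRCh38.p14, read 5′ to 3′ on the gene's strand, with CG pairs in capitals.

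RAB40A (chrX:103519490-103519739, minus strand): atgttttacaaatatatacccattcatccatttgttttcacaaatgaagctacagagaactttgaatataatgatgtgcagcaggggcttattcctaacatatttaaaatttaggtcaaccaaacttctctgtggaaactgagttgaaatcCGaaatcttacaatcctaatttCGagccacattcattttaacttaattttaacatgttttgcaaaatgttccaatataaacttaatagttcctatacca
RAB11A (chr15:65869241-65869490, plus strand): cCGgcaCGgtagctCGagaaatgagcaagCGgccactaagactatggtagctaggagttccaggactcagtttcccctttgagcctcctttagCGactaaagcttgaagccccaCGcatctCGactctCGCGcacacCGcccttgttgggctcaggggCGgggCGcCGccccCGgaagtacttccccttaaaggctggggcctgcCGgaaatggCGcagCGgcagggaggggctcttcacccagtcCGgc
RAB8A (chr19:16111639-16111888, plus strand): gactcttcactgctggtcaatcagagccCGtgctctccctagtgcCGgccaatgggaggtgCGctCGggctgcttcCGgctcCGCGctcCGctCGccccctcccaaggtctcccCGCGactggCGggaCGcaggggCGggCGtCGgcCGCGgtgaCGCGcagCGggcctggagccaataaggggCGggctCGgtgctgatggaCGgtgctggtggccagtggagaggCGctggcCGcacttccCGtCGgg
RAB31 (chr18:9708051-9708300, plus strand): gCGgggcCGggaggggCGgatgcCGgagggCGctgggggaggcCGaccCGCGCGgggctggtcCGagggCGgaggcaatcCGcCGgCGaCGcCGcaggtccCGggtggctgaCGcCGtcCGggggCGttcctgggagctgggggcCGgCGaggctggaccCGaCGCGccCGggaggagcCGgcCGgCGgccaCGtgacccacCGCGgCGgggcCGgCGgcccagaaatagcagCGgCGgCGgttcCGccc

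The RAB40A window held 2 CG pairs, the RAB11A window 18, the RAB8A window 28 and the RAB31 window 40. Of the 42 genes, 33 matched the RefSeq promoter table, with 46 windows and a median of 18 CG pairs, against 11 over all 35116 windows. The GC box GGGCGG, searched on both strands (as GGGCGG or CCGCCC), stood in 34 of the 46 member windows (73.9%) and in 42.6% of all windows. It was present in the RAB11A, RAB8A and RAB31 windows and not in that of RAB40A. Methylation itself was not measured. The 4 members with under 10 CG pairs in every window were RAB40A, RAB17, RAB25 and RAB29, whose Aza minus vehicle differences in log2 level were 0.72, 0.01, -0.78 and -0.11.

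Levels are given as quantile-normalized log2 intensity, whose lower limit is 0, and differences are differences of such levels. The deposited intensities had array medians of 23.3 to 35.9, and 5.26% to 7.94% of the values of an array lay below the lower limit. Precision is limited by how few arrays there are. Probe sets for the basal keratins KRT5 and KRT14, for ITGB4 and for E-cadherin (CDH1, mean 7.84) were bright, whereas KRT19 lay at the lower limit on all 12 arrays and EPCAM on 4. LUM, a fibroblast marker, lay at the limit on 9 arrays, CDH5 of endothelium on 7 and PTPRC of leukocytes on 3. COL1A1 (7.15) and KDR (7.58) were not low. The 6 fibroblast markers summed to 182 to 260 in linear intensity on vehicle arrays, 132 to 217 on AGA arrays and 219 to 286 on Aza arrays. The 9 measured epithelial markers summed to 9417 to 14715, 13412 to 16009 and 9090 to 14382 in the same order. The part of these sums in the Rab values was not tested.

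Among the Rab members, 27 had a mean level above the median probe set and 15 below it. RAB1A of the early secretory pathway averaged 10.99 and RAB13 of the tight junction 10.18, and RAB3B, a vesicle Rab of neurons and secretory cells, averaged 1.42. RAB3B was the only member with any array at the lower limit (3 arrays). Precision followed brightness. The median standard error of the AGA minus vehicle difference was 0.12 for the 27 brighter members and 0.63 for the 15 dimmer ones.

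**Figure D1:**
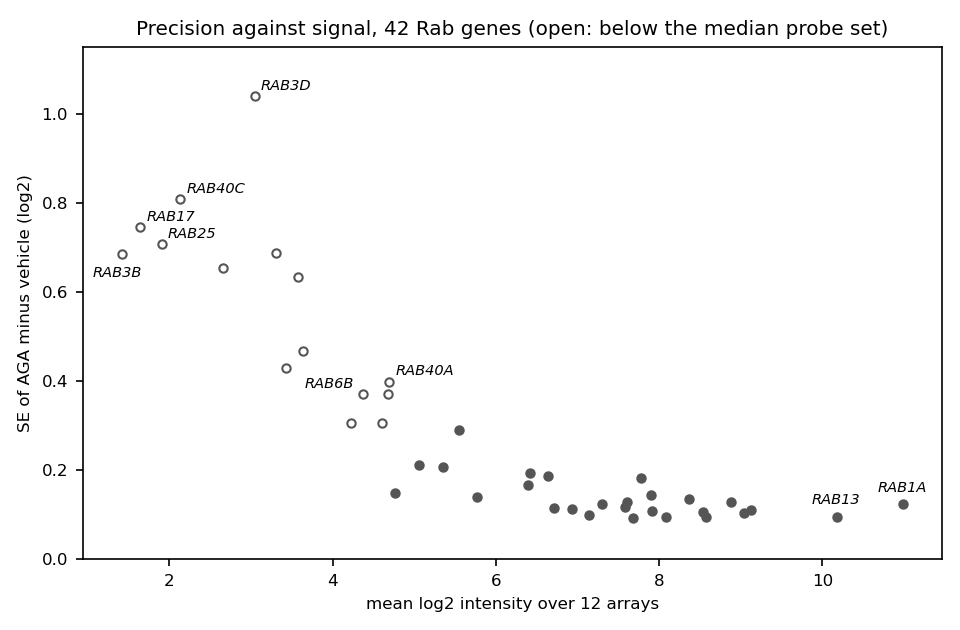
Standard error of the AGA minus vehicle difference (vertical axis, log2 units) against mean log2 level (horizontal axis) for the 42 Rab genes, one point per gene. Filled points, above the median probe set, sit low with a median of 0.12, and open points, below it, scatter higher with a median of 0.63.

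AGA against vehicle asked which Rab transcripts differ when acini form without apical polarity under gap junction inhibition. No member passed the adjusted threshold of 0.05 (limma with replicate number as a block, 0 of 42), beside 0.009% of all 22215 probe sets. At an unadjusted p under 0.05 there were 5 members, 4 higher and 1 lower, or 11.9% against 9.52% of all probe sets (4.85% higher and 4.67% lower). These shares are not matched for brightness. With dim probe sets left out, 1888 of 11108 probe sets had such a p. With an intensity trend in the limma prior, 0 members passed beside 0.702% of probe sets. Without the replicate block the count was again 0, beside 0.009% of probe sets. The median difference of the members was -0.01, with 20 above 0 and 22 below, and that of all 11963 genes was 0.01. For all 27 brighter members the 95% interval of the difference lay within a 2-fold change either way, beside 93.1% of all probe sets above the median, and for 0 of the 15 dimmer members, beside 12.2% below it. Over all probe sets, 52.6% had such an interval.

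RAB11A, the Rab of the recycling endosome that delivers apical cargo, read 9.16, 8.82, 8.89 and 8.65 on the vehicle arrays of replicates 1 to 4. The AGA arrays read 9.29, 9.19, 9.42 and 8.87, and the Aza arrays 9.27, 9.10, 9.06 and 8.72. Every AGA value was above its same-number vehicle value, but the groups overlapped. The AGA minus vehicle difference was 0.31 ± 0.10 (SE, n = 4; 95% interval 0.07 to 0.55), which did not pass (limma adjusted p = 0.466). The dimmer RAB11A probe set gave the opposite sign, -0.26. The 2 probe sets therefore disagreed on direction, and their mean differed by 0.022. On the scale as deposited the brighter one differed by 0.076.

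RAB8A, which acts on the same route next to the membrane, read 7.91, 7.57, 7.55 and 7.61 with vehicle. With AGA it read 7.67, 7.31, 7.63 and 7.52, and with Aza 7.74, 7.80, 7.48 and 7.47. The 3 groups overlapped throughout. The AGA minus vehicle difference was -0.13, with a 95% interval of -0.43 to 0.17, and the Aza minus vehicle difference was -0.04, with an interval of -0.33 to 0.26. The related RAB8B differed by -0.04 with AGA.

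Of the other Rabs of apical recycling and lumen formation, RAB13 (0.05), RAB14 (-0.01) and RAB35 (-0.13), which works in endosomal recycling and lumen initiation, gave AGA minus vehicle differences close to 0, and RAB13 turned to -0.15 on the scale as deposited. RAB11B, the close relative of RAB11A, gave -0.72, while its other probe set gave 0.50 and their mean -0.11. With single arrays or replicates left out it ran from -1.14 to -0.42. The dim RAB25 probe set, for an epithelial member of the RAB11 family, gave -0.71. It ran from -1.51 to -0.28 with arrays left out and was -0.018 when values under an intensity of 16 were set to 16. The dim RAB17 probe set, for a Rab of apical recycling in epithelia, gave 0.39. None of the 9 members in this role passed (limma). Their median difference was -0.04, with 3 above 0 and 6 below.

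The 3 members of the RAB40 family carry a SOCS box, which links them to ubiquitin ligases. RAB40A read 4.45, 4.97, 4.67 and 5.20 with vehicle, 4.34, 3.83, 2.41 and 4.26 with AGA, and 5.90, 4.75, 5.62 and 5.88 with Aza. All 4 AGA values lay below all 4 vehicle values. Over all probe sets, 2.52% had AGA and vehicle values that did not overlap, and RAB40A was the only such member (1 of 42). The means were 4.82 ± 0.33 with vehicle, 3.71 ± 0.89 with AGA and 5.54 ± 0.54 with Aza (SD, n = 4). The AGA minus vehicle difference of -1.11 ± 0.40 (SE) did not pass (limma adjusted p = 0.479). RAB40A has 1 probe set, just below the median probe set, and the nearly identical copy RAB40AL may contribute to its signal. With a lower limit of 16 in intensity, the RAB40A difference was -0.67. RAB40B gave -0.13, but its dimmer probe set gave 0.51 ± 0.20 (SE). The dim RAB40C gave -1.16, lower in 4 of 4 pairs, and -0.14 with the lower limit of 16.

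**Figure D2:**
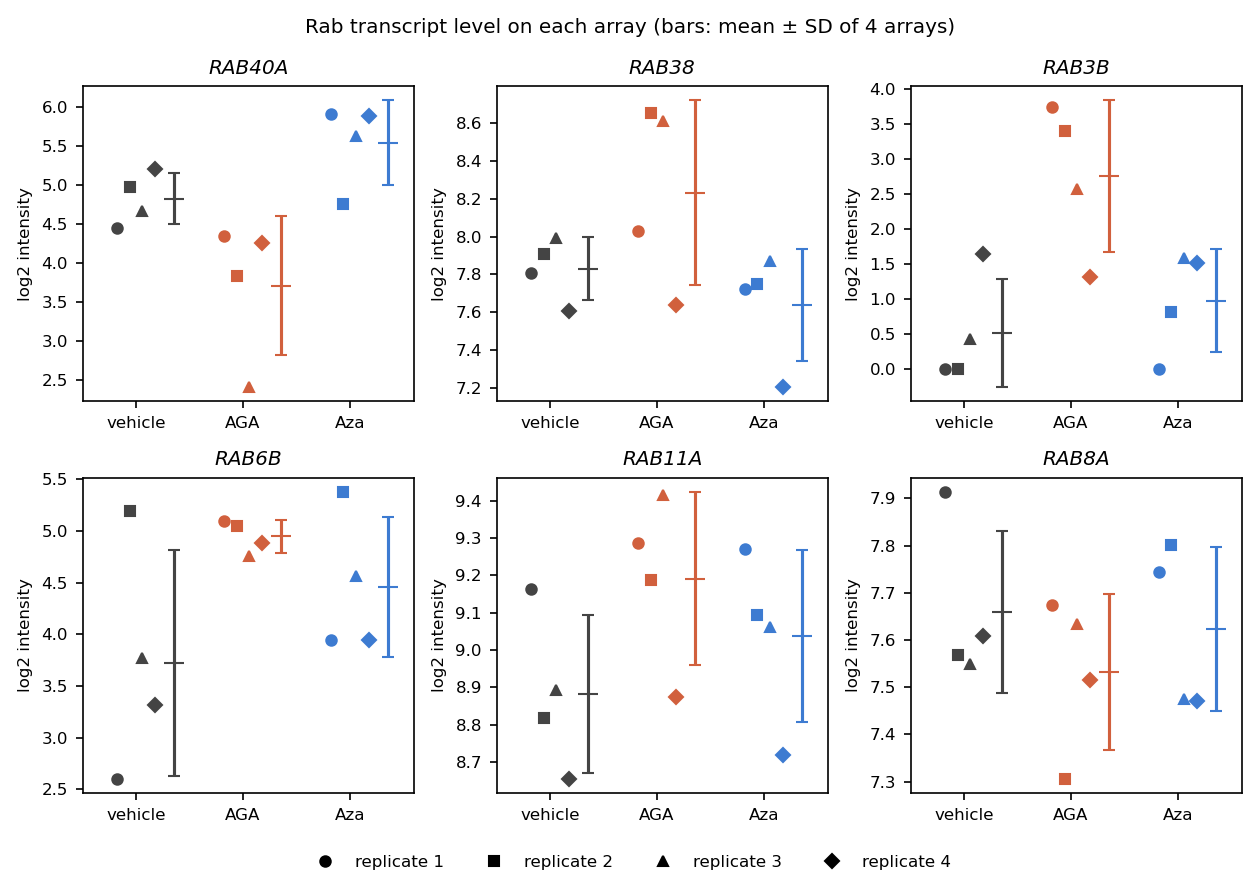
Log2 level on each array (points) with the group mean and SD (line and bar, n = 4) for RAB40A, RAB38, RAB3B, RAB6B, RAB11A and RAB8A in vehicle, AGA and Aza cultures. The RAB40A points of AGA, 2.41 to 4.34, lie below those of vehicle, 4.45 to 5.20, whereas the RAB8A points of the 3 groups overlap.

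Among the Rabs of endosomes and lysosomes, 5 of 7 early endosome members and 5 of 6 late endosome members had AGA values above vehicle on average. The median differences were 0.07 and 0.15. On the scale as deposited, where the median of all probe sets was -0.24, 0 of 7 and 2 of 6 were above 0, and 5 of 7 and 5 of 6 were above that median. RAB38, which serves the biogenesis of melanosomes and other lysosome-related organelles, read 7.81, 7.91, 7.99 and 7.61 with vehicle. It read 8.03, 8.65, 8.61 and 7.64 with AGA, and 7.72, 7.75, 7.87 and 7.20 with Aza. AGA was above vehicle in 4 of 4 pairs, by 0.40 ± 0.14 (SE; limma adjusted p = 0.479), and by 0.15 on the scale as deposited. RAB32, its closest relative, gave 0.40 ± 0.19, RAB29 gave 0.18 (its other probe set -0.04), RAB7A of the late endosome 0.13 and RAB9A, which returns receptors to the Golgi, 0.10. RAB21, an early endosome Rab linked to integrin traffic, gave 0.21 and was higher in 4 of 4 pairs.

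In the secretory pathway, RAB6B, a Golgi Rab, read 2.60, 5.20, 3.77 and 3.31 with vehicle, 5.10, 5.05, 4.76 and 4.88 with AGA, and 3.94, 5.38, 4.56 and 3.94 with Aza. The 4 AGA values were close together, and the vehicle value of replicate 2 stood above all of them. The AGA minus vehicle difference was 1.23 ± 0.37 (SE; limma adjusted p = 0.449), and the other RAB6B probe set gave 0.80. With a lower limit of 16 the RAB6B difference was 0.65. RAB1A gave -0.26, lower in 4 of 4 pairs, but its other probe sets gave 0.02 and -0.03, and their mean with it -0.09. The dim RAB36, a Golgi Rab, gave -0.66, which turned to 0.051 with that limit, and RAB23, which restrains Hedgehog signalling, gave 0.34 (0.067 on the scale as deposited).

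RAB3B gave the largest AGA minus vehicle difference of the members, 2.24 ± 0.69 (SE; limma adjusted p = 0.449), near the lower limit of the scale. It read 0.00, 0.00, 0.43 and 1.63 with vehicle, 3.74, 3.40, 2.57 and 1.31 with AGA, and 0.00, 0.81, 1.59 and 1.50 with Aza. Replicates 1 to 3 were higher with AGA and replicate 4 was not. The other RAB3B probe set gave 0.33, and the mean of both 1.28. When values under an intensity of 16 were set to 16, RAB3B no longer differed at all.

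With AGA, 9 members differed in the same direction in 4 of 4 pairs (6 higher and 3 lower, or 21.4%), beside 18.2% of all probe sets (9.15% higher and 9.06% lower). The 6 higher were RAB11A, RAB21, RAB22A, RAB23, RAB29 and RAB38, and the 3 lower were RAB1A, RAB40A and RAB40C.

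**Figure D3:**
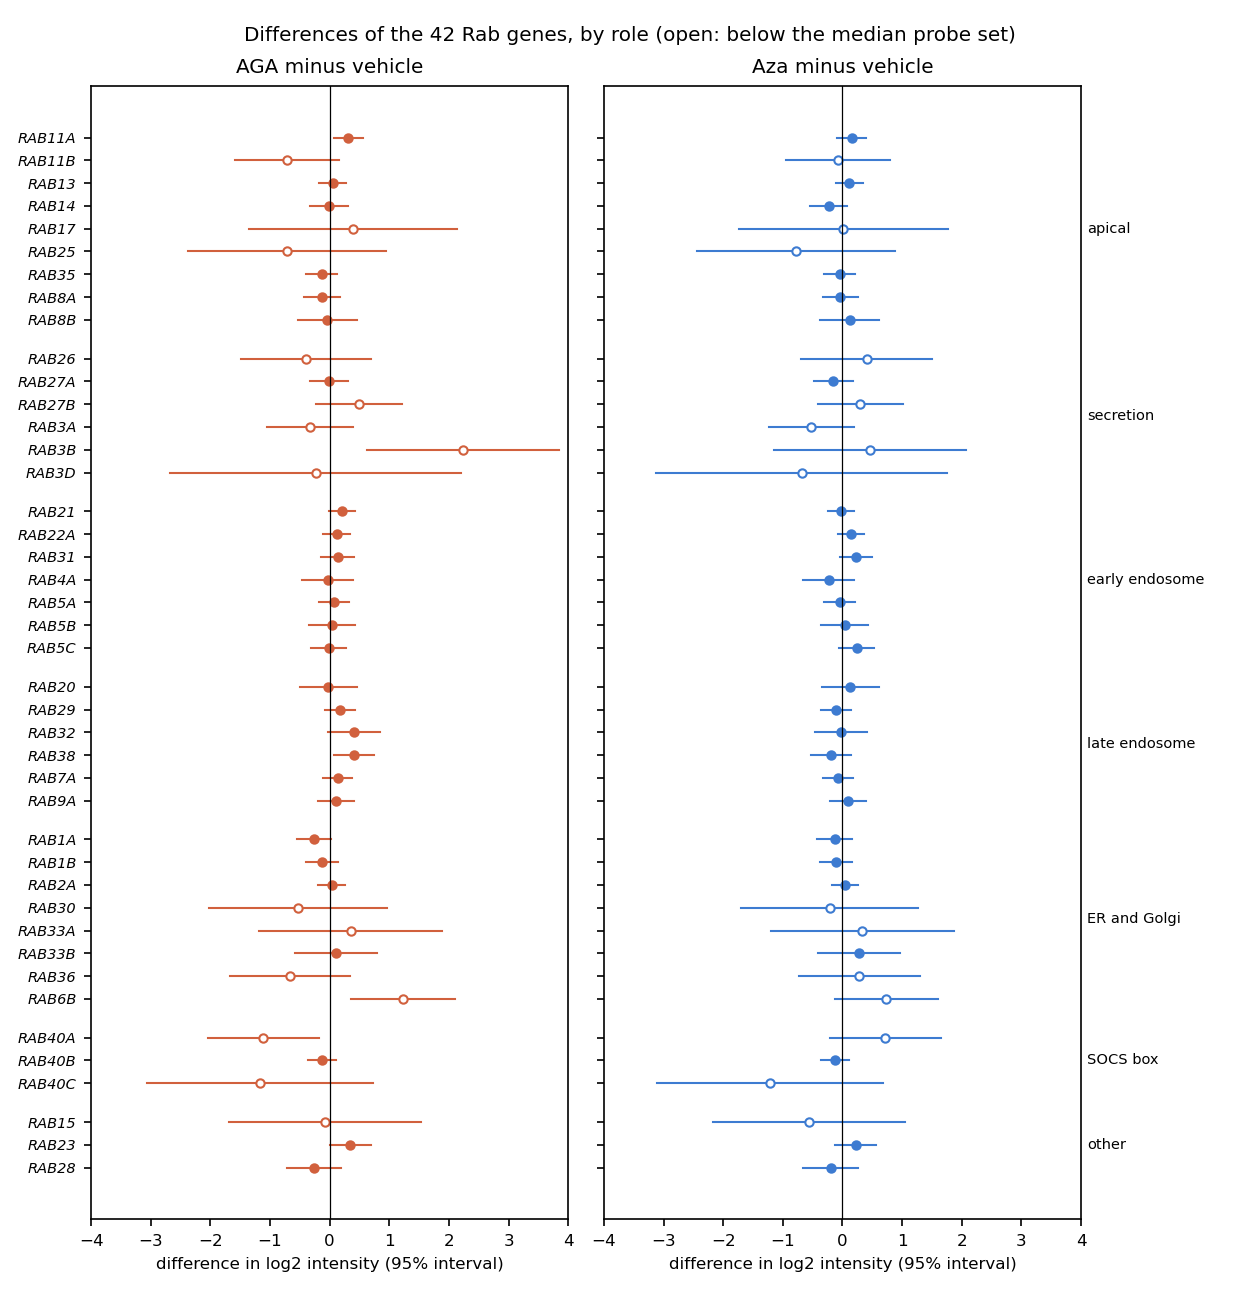
AGA minus vehicle and Aza minus vehicle differences (horizontal axis, log2 units) with 95% intervals for the 42 Rab genes, grouped by role, with open points for genes below the median probe set. Filled points lie near 0 with narrow intervals, and the wide intervals belong to open points such as RAB3B, at 2.24 for AGA.

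Aza against vehicle asked the same of acini formed while DNA methyltransferases were inhibited. No member passed (limma, 0 of 42), and 0% of all probe sets did. At an unadjusted p under 0.05 there were 0 members, beside 5.39% of probe sets. With the intensity trend 0 members passed beside 0.0045% of probe sets, and without the block 0 members passed beside 0.009%. The member median was -0.02, with 20 above 0 and 22 below, beside 0.00 for all genes. The 95% interval lay within a 2-fold change for 28 members, including all 27 brighter ones, beside 54.1% of all probe sets. The AGA and Aza comparisons share their vehicle arrays, so their values are given side by side without an overlap.

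For the apical route, the Aza minus vehicle difference was 0.15 for RAB11A (higher in 4 of 4 pairs), -0.08 for RAB11B, 0.12 for RAB13 (higher in 4 of 4 pairs), 0.12 for RAB8B and -0.05 for RAB35. RAB14, which works between the Golgi and endosomes, gave -0.23 (lower in 4 of 4 pairs), while its other probe sets gave 0.09 and -0.02. The lowest unadjusted p among higher values belonged to RAB6B (0.74, 4 of 4 pairs), RAB5C of the early endosome (0.24), RAB31, which works between the trans-Golgi and endosomes (0.22, 4 of 4 pairs), and RAB40A. RAB40A differed by 0.72 ± 0.40 (SE; limma adjusted p = 0.916) and was higher in 3 of 4 pairs.

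Among lower values were RAB3A of regulated exocytosis (-0.52), RAB40C (-1.21), RAB25 (-0.78), RAB38 (-0.19, lower in 4 of 4 pairs) and RAB4A of fast recycling (-0.23). RAB17 gave 0.01. With a lower limit of 16, RAB40C was -0.14, RAB25 -0.018, RAB3A -0.35 and RAB6B 0.19. With Aza, 10 members differed in the same direction in 4 of 4 pairs (5 higher and 5 lower, or 23.8%), beside 14.7% of probe sets (7.61% higher and 7.12% lower). Not a single member had Aza values that all lay on 1 side of the vehicle values, beside 1.72% of probe sets.

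Aza against AGA compared the treatments directly, which is the test of whether the effects differ. With the replicate block alone no member passed (limma, 0 of 42), beside 0.009% of probe sets. At an unadjusted p under 0.05 there were 5 members, 1 higher and 4 lower, or 11.9% against 9.13% of probe sets (4.54% higher and 4.59% lower). These shares are not matched for brightness. With dim probe sets left out, 1699 of 11108 probe sets had such a p. With the intensity trend added, RAB40A and RAB38 passed, 2 of 42 members (4.76%) beside 0.851% of probe sets. Without the block 0 members passed beside 0.0135%. The 95% interval lay within a 2-fold change for 29 members, beside 52.6% of probe sets.

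RAB40A was higher with Aza than with AGA in 4 of 4 pairs, and the lowest Aza value, 4.75, lay above the highest AGA value, 4.34. The difference was 1.83 ± 0.40 (SE; 95% interval 0.90 to 2.77), a 3.56-fold ratio. Its limma adjusted p was 0.286 with the block and 0.0194 with the intensity trend. The call with the trend was lost when AGA 3, AGA 4, Aza 1, Aza 3 or Aza 4 was left out, and without replicate 1, 3 or 4, where the adjusted p ran from 0.0533 to 0.205. With the mean of a gene's probe sets its adjusted p with the trend was 0.05, which did not pass, and it was not tested where dim probe sets were left out. The vehicle values lay between the AGA and Aza means.

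RAB38 was lower with Aza than with AGA in 4 of 4 pairs, by -0.60 ± 0.14 (SE), although the values of the groups overlapped through replicate 4. Its limma adjusted p was 0.335 with the block and 0.021 with the trend. The call with the trend was lost without AGA 2, AGA 3, Aza 2, Aza 3 or Aza 4, without replicate 2 or 3, and on the scale as deposited (adjusted p = 0.333). The melanocyte and neuronal markers, of cells rich in RAB38, were dim, with TYR and MLANA both at 1.91. The 6 measured markers of that list summed to 59.8 to 77.1 in linear intensity with vehicle, 55.7 to 94.2 with AGA and 66.5 to 79.5 with Aza.

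RAB32 was the other member with no overlap between Aza and AGA, giving 2 of 42 beside 2.58% of probe sets. It read 6.85, 6.66, 7.08 and 7.10 with AGA and 6.64, 6.62, 6.44 and 6.27 with Aza, a difference of -0.43 ± 0.19 (SE; limma adjusted p = 0.552). Of the 6 late endosome members, 5 were lower with Aza than with AGA, with a median of -0.24, beside -0.01 for all genes. On the scale as deposited 4 of the 6 were lower. These included RAB29, which acts with the kinase LRRK2 at the Golgi and lysosome (-0.28, or -0.097 on the scale as deposited), and RAB7A (-0.20). RAB21 gave -0.23 and RAB3B -1.78. RAB36 gave 0.95 (0.028 with a lower limit of 16) and RAB5C 0.26 (its other probe set -0.01). RAB11B gave 0.64, but its other probe set gave -0.29 and their mean 0.18. RAB14 gave -0.23, and its other probe sets gave 0.03 and -0.04. RAB8A gave 0.09, RAB8B 0.16, RAB13 0.06, RAB17 -0.38 and RAB35 0.09. RAB25 gave -0.07 and RAB11A -0.15, which turned to 0.13 and 0.026 on the deposited scale. In the same direction in 4 of 4 pairs were 11 members (3 higher and 8 lower), or 26.2% beside 17.4% of probe sets (8.66% higher and 8.76% lower). The fibroblast marker sums given above were higher with Aza than with AGA on every array. Of the 6 fibroblast markers DCN passed with the intensity trend (1.47, limma adjusted p = 0.0162, and 0.232 with the block alone), and of the 5 endothelial markers KDR passed (0.75, adjusted p = 0.0131, and 0.298 with the block alone). By direction, 4 fibroblast markers were higher with Aza than with AGA and 2 lower (median 0.28, lowest -1.12). For endothelium 2 markers were higher and 3 lower (median -0.44, lowest -1.50), so KDR did not stand for its list. Of the 9 epithelial markers 0 were higher with Aza and 8 were lower, with a median of -0.42. The part of these markers in the Rab differences was not tested.

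Both treatments together against vehicle set not polarized, drug-treated acini against polarized, untreated ones, so polarity and drug exposure cannot be told apart. No member passed (limma, 0 of 42) and 0% of probe sets did, with 2 members at an unadjusted p under 0.05, or 4.76% beside 6.68%. Those 2 were RAB6B (0.98, or 0.42 with a lower limit of 16) and RAB11A (0.23). The other RAB11A probe set gave the opposite sign, -0.10, and the mean of both gave 0.067. On the scale as deposited RAB11A differed by 0.089. With the trend 0 members passed beside 0% of probe sets, and without the block 0 members passed beside 0.0045%. The 95% interval lay within a 2-fold change for 28 members, beside 57.2% of probe sets. The member median was 0.03, with 24 above 0 and 18 below. RAB1A gave -0.20, RAB3A -0.42, RAB40C -1.19 and RAB3B 1.35. RAB40A gave -0.20, since its AGA and Aza differences had opposite signs, and RAB8A gave -0.08. Of the other apical members, RAB11B gave -0.40, but its other probe set gave 0.36 and their mean -0.019. RAB14 gave -0.12, and its other probe sets gave 0.08 and -0.003. RAB17 gave 0.20, RAB25 -0.75 and RAB35 -0.09. RAB13 gave 0.08 and RAB8B 0.04, which turned to -0.036 and -0.13 on the scale as deposited.

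Replicate 4 stood further from the other replicates than the treated cultures stood from vehicle. The median absolute difference of replicate 4 from replicates 1 to 3 was 0.39 over the members and 0.39 over all probe sets. Over the members it was 0.19 for AGA and 0.17 for Aza against vehicle. In an F test over the 4 replicate numbers (limma), 3 members passed, or 7.14% beside 9.63% of probe sets. They were RAB31 (adjusted p = 0.0038), RAB27A (adjusted p = 0.0057) and RAB23 (adjusted p = 0.0397). With the intensity trend, 14 passed, or 33.3% beside 23.8%, and RAB23 was not among them (adjusted p = 0.0732). RAB31 and RAB27A lost their calls only without replicate 4 (adjusted p = 0.882 and 0.643), among 16 fits that left out an array or a replicate number. The RAB23 call was lost in all 16. The labels give no property that separates replicate 4 from the others.

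RAB31 read 8.04, 7.97, 7.62 and 6.24 with vehicle, 7.99, 7.90, 8.05 and 6.46 with AGA, and 8.11, 8.08, 8.12 and 6.44 with Aza. Replicate 4 was lower in every group, by -1.61 on average, and the other RAB31 probe sets gave -2.30 and -1.77. RAB27A, which docks secretory granules and lysosome-related organelles at the plasma membrane, read 6.45, 6.27, 5.91 and 4.66 with vehicle. It read 6.36, 6.23, 6.32 and 4.34 with AGA and 6.15, 5.97, 5.99 and 4.57 with Aza. Its replicate 4 mean was lower by -1.66, and its other probe sets gave -1.33, -1.08 and -1.03. The related RAB27B gave -1.10 and -2.24 on its probe sets. RAB4A ran the other way on all 3 of its probe sets (0.95, 1.08 and 0.83), with limma adjusted p of 0.0516 on the brightest, and RAB23 gave 0.76. RAB40B gave -0.31 (limma adjusted p = 0.0595), and its dimmer probe set 0.11.

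In 11 of 42 members (26.2%) the 3 replicate 4 values all lay on 1 side of the other 9, beside 14.6% of probe sets. Of these, 3 were higher in replicate 4 (RAB21, RAB23 and RAB4A) and 8 were lower (RAB1B, RAB2A, RAB27A, RAB31, RAB38, RAB5A, RAB7A and RAB9A), beside 7.51% and 7.11% of probe sets. These shares are not matched for brightness. Above the median probe set lay 27 of the 42 members, and the replicate F test called 9.63% of all probe sets but 45.9% with dim ones left out. Replicate 4 was singled out after its values were seen, so no test was made of it alone.

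**Figure D4:**
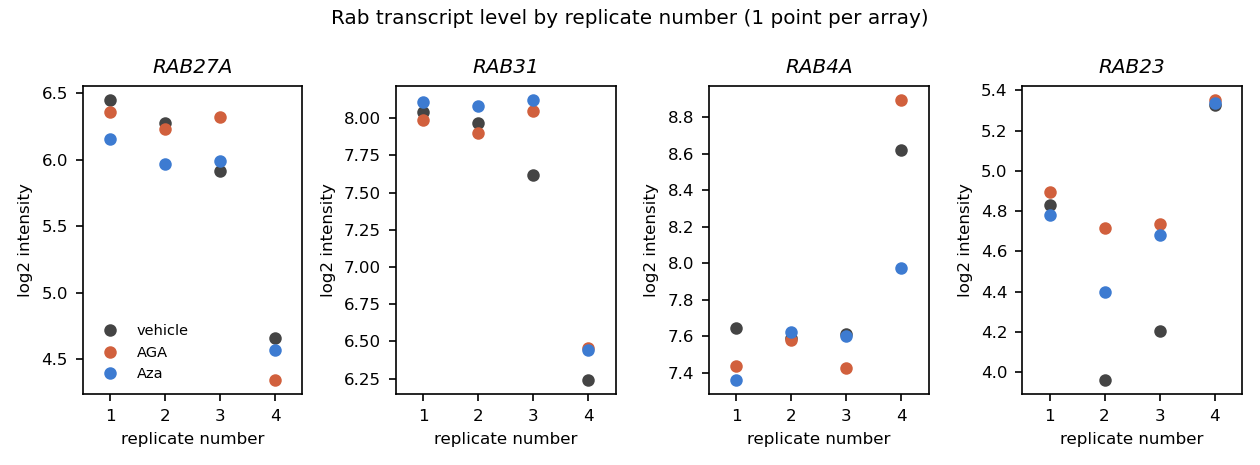
Log2 level (vertical axis) by replicate number (horizontal axis) for RAB27A, RAB31, RAB4A and RAB23, one point per array coloured by group. In replicate 4 the RAB31 points drop to 6.24 to 6.46 and the RAB27A points to 4.34 to 4.66 in all 3 groups, while RAB4A and RAB23 are higher there.

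The genes that load, switch, unload and read Rab proteins were taken from lists of 147 genes, of which 115 were measured. None passed in any of the 4 treatment comparisons (limma with the block). At an unadjusted p under 0.05, 9 were higher and 8 lower with AGA, 3 higher and 1 lower with Aza, 4 higher and 5 lower with Aza against AGA, and 7 higher and 3 lower with both treatments. These are 14.8%, 3.48%, 7.83% and 8.7% of the 115, beside 9.52%, 5.39%, 9.13% and 6.68% of all probe sets. The shares are not matched for brightness, since 95 of the 115 remained with dim probe sets left out. In that fit 1888 of 11108 probe sets had such a p with AGA and 832 with Aza. The counts there were 1699 with Aza against AGA and 1248 with both treatments. With the intensity trend, APPL2 and RPGR passed in Aza against AGA (1.74%, beside 0.851% of all probe sets), and 0 in the others (beside 0.702% with AGA). APPL2, a RAB5 effector of early endosomes, was higher with Aza by 0.51 ± 0.11 (SE; adjusted p = 0.03, limma with trend; 0.272 with the block alone). RPGR, a protein of the cilium, was higher by 0.50 ± 0.14 (SE; adjusted p = 0.0428 with trend and 0.403 with the block alone). Both were higher in 4 of 4 pairs.

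Among genes that handle prenylation and nucleotide loading, RABIF, a chaperone of nucleotide-free Rabs, gave 0.63 ± 0.10 with AGA (SE; limma adjusted p = 0.407). All of its AGA values lay above all vehicle values, and the difference was 0.36 on the scale as deposited. It was -0.52 with Aza against AGA, where the values again did not overlap. RABGGTB, the catalytic subunit of Rab geranylgeranyl transferase, gave 0.29 with both treatments. Among exchange factors and their relatives, SBF1 gave 0.54 with AGA. DENND1A, which activates RAB35, gave 1.91 ± 0.51 with Aza (SE, limma adjusted p = 0.912). Its Aza and vehicle values did not overlap, beside 1.72% of all probe sets. With a lower limit of 16 the DENND1A difference was 0.066, and the SBF1 difference over the mean of its probe sets was 0.088.

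Among the GTPase activating proteins, USP6NL, which acts on RAB5, gave -0.76 ± 0.21 with AGA (SE, limma adjusted p = 0.437). It lay below vehicle on all arrays, beside 2.52% of all probe sets with no overlap between AGA and vehicle values. TBC1D16 gave 0.63 with Aza. Among effectors, APPL2 gave -0.43 with AGA (-0.70 on the scale as deposited), the Golgi matrix protein GOLGA2 -0.32 and PLIN3, a RAB9 effector, -0.31 with Aza. OPTN, which binds RAB8, gave -0.54 with Aza against AGA. Of the 27 measured recycling, exocyst and apical delivery effectors, 21 were above 0 with AGA (median 0.07) and 19 with Aza (median 0.09). Over all 11963 genes, 6156 were above 0 with AGA and 6015 with Aza. The effectors past the adjusted threshold numbered 0 in either (limma). On the scale as deposited, 7 effectors were above 0 with AGA and 21 above the median of all probe sets. With Aza, 16 were above 0 there (median 0.03) and 19 above that median. Of the 27, 3 with AGA (11.1%) and 0 with Aza had an unadjusted p under 0.05, beside 9.52% and 5.39% of all probe sets. These shares are also not matched for brightness.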

How the data were processed

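Total RNA from 12 cultures was labelled and hybridised to single-colour Affymetrix arrays. The deposited values are intensities per probe set on a linear scale, made with GCOS per the submitters' processing notes. The version, algorithm and any scaling of arrays are not given in the sources used here, and files and labels name no genome build.

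Intensities under 1 were raised to 1 before taking log2. Array medians then spanned 0.62, and arrays were quantile normalized. Control probe sets (62 of 22277) were left out. Of the rest, 19064 carried 1 symbol, 1043 several and 2108 none. A linear model with terms for group and replicate number was fitted to the 12 arrays (limma 3.58.1, R 4.3.3; lmFit, eBayes, two-sided tests), leaving 6 residual degrees of freedom. P-values were adjusted over the 22215 probe sets by Benjamini and Hochberg's method, at 0.05. The code was tested on simulated data.

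The labels give replicate numbers without saying what they share. Deviations from the group means correlated over 0.1 in 6 of 12 same-number pairs over all probe sets (0.059 to 0.261, against at most 0.029 for different numbers) and in 12 of 12 over probe sets above the median (0.368 to 0.781, against at most 0.181). Over the 42 Rab members alone, same-number pairs ran from -0.216 to 0.404 and different-number pairs from -0.468 to 0.307, so the ranges overlapped. The block was kept because the definition of the comparisons pairs arrays by number.

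The members, gene lists and tests were chosen with earlier results of these data known. Named in every comparison were RAB40A and the 9 apical recycling members. Also named were members past the threshold in the fit with the block or with block and intensity trend, the 5 lowest unadjusted p per direction (3 for both treatments and for Aza against AGA), the 5 highest replicate F values and, from the machinery lists, those past the threshold and the 2 lowest p per direction. RAB32, RAB21, RAB22A, RAB29, RAB7A, RAB9A and the other genes named in counts were named after their values were seen. Alternatives were the scale as deposited, median-centred arrays, a lower limit of 16, dim probe sets left out, no block, the intensity trend (eBayes with trend and robust), only the groups compared, Holm's adjustment, the mean of a gene's probe sets, and leaving out each array or replicate number. Combinations with the trend were added after seeing the data. Promoter windows came from RefSeq (GRCh38.p14).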

Additional observations from a re-analysis of the deposited data

Results flagged for a closer look

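Within each group of 4 arrays, 105 groups of 35 named genes were searched for a highest or lowest array set apart from the other 3 by Dixon's 95% limit, which chance alone passes in about 1 group in 20. There were 9 such cases, each a gene in a group, and 7 of them fell on replicate 4. The same array could be marked for several genes. The genes searched included those named for the highest replicate F values, among them RAB31, RAB27A and RAB4A. The rate of 1 in 20 therefore does not apply to these genes, and the count on replicate 4 is not a test of it. RAB31 stood apart on AGA replicate 4 (6.46) and Aza replicate 4 (6.44), and RAB27A on the same arrays (4.34 and 4.57), each below the others of its group. RAB4A stood above the others on vehicle replicate 4 (8.62) and AGA replicate 4 (8.89), and OPTN stood below them on vehicle replicate 4 (6.86). Outside replicate 4, RAB8A was high on vehicle replicate 1 (7.91) and RAB8B low on AGA replicate 3 (4.50).

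The Aza minus AGA difference, which is the difference between both treatment effects, passed the limma threshold with the intensity trend for RAB40A (1.83), RAB38 (-0.60), APPL2 (0.51) and RPGR (0.50). With the replicate block alone none of the 4 passed.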

How the results depend on the processing

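Counts of Rab members past the threshold in AGA against vehicle, Aza against vehicle and both treatments against vehicle were 0 under every setting except those added after seeing the data. The fit with no replicate block gave 0 members in each of the 4 treatment comparisons, so dropping the pairing changed no call. Aza against AGA gave 2 members with the replicate block and intensity trend, beside 0.851% of all probe sets. It gave 0 to 2 with the trend when arrays were left out, and 0 otherwise. Settings added after seeing the data all used the trend. In Aza against AGA they gave 1 member on the deposited scale (RAB40A) and 2 on median-centred arrays. They gave 1 on the mean of a gene's probe sets (RAB38) and 1 without dim probe sets (RAB38). On the deposited scale they also gave 1 member in AGA against vehicle (RAB40A, -1.40, limma adjusted p = 0.0453). The AGA median over all probe sets was -0.24 on that scale. Shares of all probe sets under these added settings are not given here, so the counts cannot be weighed against them. The cause of these changes in calls was not tested.

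Replicate number gave 3 members with the block, 14 with a lower limit of 16, 16 of 27 (59.3%) without dim probe sets, 14 with the trend, 0 with Holm's adjustment, 5 with the mean of probe sets and 0 to 3 with arrays left out (2 to 14 with the trend, 13 without replicate 1, 2 or 3). The shares of all probe sets moved too, from 9.63% to 16.3% with a lower limit of 16, 45.9% without dim probe sets, 23.8% with the trend, 0.0945% with Holm's adjustment and 10.3% with the mean. With the trend it gave 11 on the deposited scale, 14 on median-centred arrays, 14 with the mean of probe sets and 18 without dim probe sets, beside 15.5%, 23.6%, 22.5% and 51.2% of all probe sets. Its machinery count of 19 (16.5%) became 0 on the deposited scale (beside 1.67% of all probe sets), 30 with a lower limit of 16 (26.1%), 39 without dim probe sets (41.1%), 38 with the trend (33%), 0 with Holm's adjustment and 0 to 7 with arrays left out. Machinery in Aza against AGA gave 1 of 95 without dim probe sets (RABIF, -0.52, limma adjusted p = 0.0439), beside 0.747% of all probe sets. With the trend it gave 2 (1.74%), beside 0.851%. Over all probe sets, AGA against vehicle gave 2 calls with the block and 156 with the trend, Aza against AGA 2 and 189, and replicate number 2140 and 5288. Aza against AGA gave 83 of 11108 (0.747%) without dim probe sets.

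With the values as deposited, the median over all probe sets moved to -0.24 for AGA, -0.06 for Aza and 0.18 for Aza against AGA, and members below 0 went from 22 to 33 for AGA. Signs turned there for RAB13: AGA vs vehicle (-0.15), RAB11A: Aza vs AGA (0.026), RAB25: Aza vs AGA (0.13), RAB8B: both treatments vs vehicle (-0.13) and RAB13: both treatments vs vehicle (-0.036). RAB14: AGA vs vehicle turned on median-centred arrays (0.024). With a lower limit of 16, RAB36: AGA vs vehicle (0.051) and RAB40A: both treatments vs vehicle (0.023) turned, and RAB17, RAB3B and RAB25 gave exact zeros that have no direction. With the mean of probe sets, RAB14: AGA vs vehicle (0.026), RAB11B: Aza vs vehicle (0.069), RAB35: Aza vs vehicle (0.015) and RAB11A: Aza vs AGA (0.088) turned. None of these 12 passed a threshold on either side.

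With arrays left out, AGA against vehicle ran from -0.28 to 0.12 for RAB8B, -0.53 to 1.18 for RAB17 and -0.073 to 0.13 for RAB14. Aza against vehicle ran from -0.15 to 0.011 for RAB8A, -0.60 to 0.74 for RAB17, -0.44 to 0.21 for RAB11B, -0.15 to 0.017 for RAB35 and -0.11 to 0.26 for RAB8B. Aza against AGA ran from -0.78 to 0.40 for RAB25, -0.83 to 0.39 for RAB17 and -0.044 to 0.17 for RAB8A. Both treatments ran from -0.41 to 0.93 for RAB17, -0.19 to 0.021 for RAB14, -0.19 to 0.18 for RAB8B and -0.49 to 0.014 for RAB40A.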
